A study of Homo sapiens with 4 samples.

Results

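The genes described here encode subunits of the last stages of the mitochondrial respiratory chain: complex III, complex IV and ATP synthase. They were chosen by symbol, and all 40 were found among the 20263 human genes of the deposited count table. Of the 40, 34 lie in the nuclear genome and 6 in the mitochondrial genome (MT-CYB, MT-CO1, MT-CO2, MT-CO3, MT-ATP6 and MT-ATP8), and the rule asked for a contrast of these sets. RNA came from MDA-MB-231, an established human triple-negative breast cancer cell line. A culture received either DMSO, the usual solvent of such compounds, or Rib_CA, which the series title calls a derivative of ribociclib, an inhibitor of the cyclin-dependent kinases CDK4 and CDK6. Treatment lasted 24 h in both groups, no dose is given in the labels, and each group had 2 libraries. The design asks which transcripts differed between Rib_CA and DMSO. All samples share 1 cell line, and nothing in the labels says that the libraries of a group came from separate cultures, so p-values measure the spread between these libraries, which may be technical.

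The libraries held 34774542 to 38865103 counts. All 40 genes passed the filter on low counts, with 727 as the lowest count of any of them in any library, so depth was not the limit here. Levels are given as CPM, counts per 1000000 counts of a library scaled by TMM. All 13 genes of the mitochondrial genome in the table together took 8.68% and 21.7% of the counts in DMSO 1 and DMSO 2 and 5.78% and 3.13% in Rib_CA 1 and Rib_CA 2, so the DMSO libraries differed from each other in this respect. The 6 markers set for this line (VIM, CD44, CAV1, AXL, ZEB1 and EGFR) were at or above 1 CPM in every library. The epithelial cadherin gene CDH1 stayed at or under 0.0772 CPM and the oestrogen receptor gene ESR1 at or under 0.661 CPM. ERBB2 at 56.9 to 87.8 CPM, EPCAM at 8.29 to 13.8 CPM and GATA3 at 3.47 to 18.97 CPM were present. PGR lay at 0.424 to 1.54 CPM. Of the 5 markers of blood, vessel and stromal cells, CD3E had 0 counts and PTPRC was under 1 CPM throughout. PECAM1 lay at 0.592 to 1.18 CPM and COL1A1 at 4.66 to 7.51 CPM. ACTA2 lay at 2.01 and 3.10 CPM in DMSO 1 and 2 and at 4.09 and 5.37 CPM in Rib_CA 1 and 2. The summed level of the 5 was 11.07 to 11.33 CPM in DMSO and 10.60 to 10.99 CPM in Rib_CA. The levels of these markers are per 1000000 total counts, without TMM.

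Complex III takes electrons from ubiquinol and passes them to cytochrome c, and complex IV passes them from cytochrome c to oxygen. Both pump protons across the inner mitochondrial membrane, and ATP synthase lets the protons flow back and uses that flow to make ATP. The catalytic core of complex IV, the cytochrome b of complex III and the proton channel subunit of ATP synthase are encoded in mitochondrial DNA, which is transcribed and translated inside the organelle. The other subunits are transcribed in the nucleus, translated in the cytosol and imported, so that each complex is built from products of both genomes.

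Transcripts of the 2 genomes lay on opposite sides. Fold changes of Rib_CA over DMSO were positive for 29 of the 34 nuclear genes, against 51.9% of all genes tested. They were negative for all 6 mitochondrially encoded genes, against 48.1%. These 6 followed the same order of libraries, so they do not count as 6 separate observations. In edgeR's quasi-likelihood test, adjusted over all 13667 genes tested, 2 of the 34 nuclear genes rose (COX5B and UQCR11) and none fell, or 5.88% of them, where 7.13% of all genes tested were called, 2.01% as higher and 5.11% as lower. None of the 6 mitochondrially encoded genes passed in edgeR. At an unadjusted p under 0.05, 14 nuclear genes were higher and none lower, and all 6 mitochondrially encoded genes were lower, against 13.7% higher and 14.7% lower among all genes tested. DESeq2 called 12 of the nuclear genes higher and none lower, and all 6 mitochondrially encoded genes lower, with 8.1% of genes called higher and 11.8% lower over the 12872 genes to which it gave an adjusted p.

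The median log2 fold change was 0.48 for the nuclear genes and -1.97 for the mitochondrially encoded genes, where that of all genes tested was 0.03. Both Rib_CA libraries lay above both DMSO libraries for 20 of the 34 nuclear genes (58.8%) and below them for 3 (8.82%), and the groups overlapped for 11. The same was true of 30.4% (higher) and 28.4% (lower) of the whole set of tested genes. All 6 mitochondrially encoded genes had both Rib_CA libraries below both DMSO libraries. Counts are shares of a library, so less mitochondrial RNA and more of other RNA cannot be told apart. Nor do they show whether all cells or only some of them changed.

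**Figure D1:**
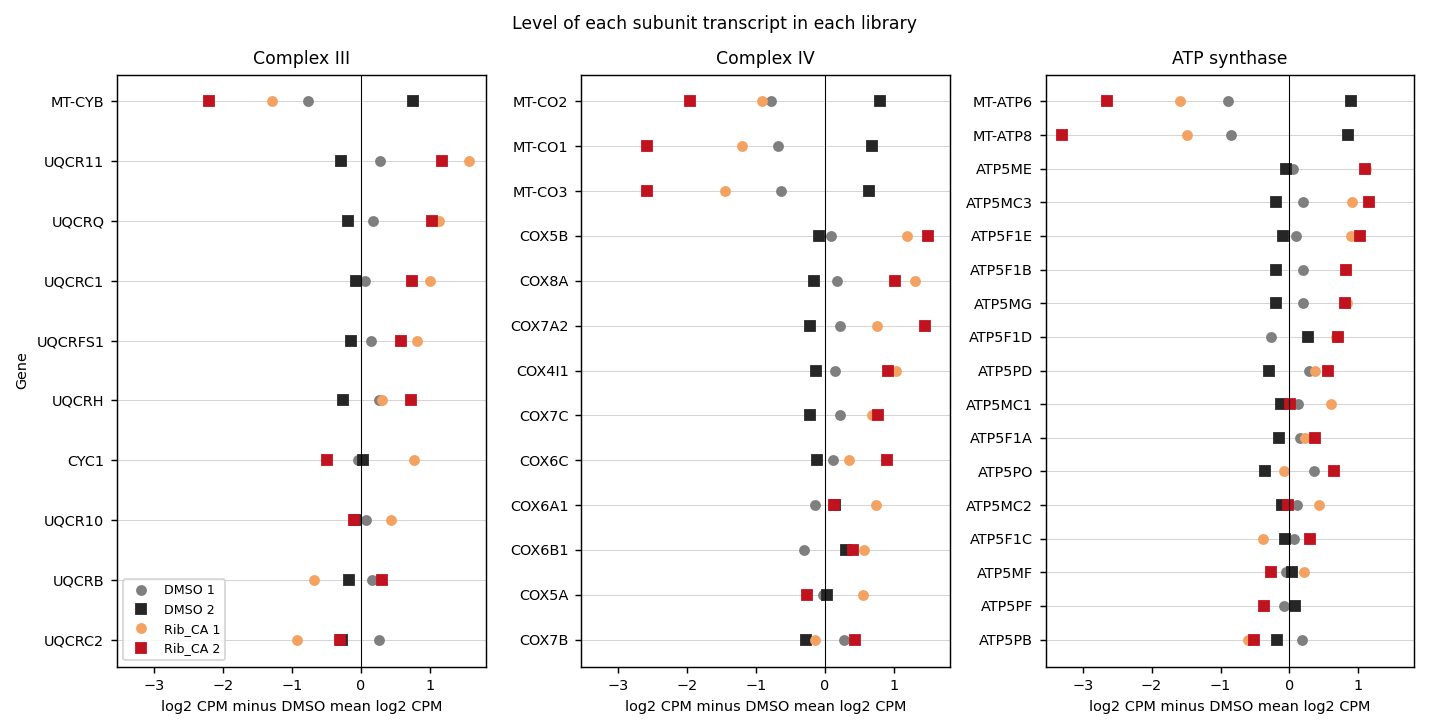
Level of each of the 40 transcripts in each library, as log2 CPM less the mean log2 CPM of the DMSO libraries (x axis), by gene (y axis) and complex (panels). Grey circles and black squares are DMSO 1 and DMSO 2, and orange circles and red squares are Rib_CA 1 and Rib_CA 2; where points coincide, the later one covers the earlier. The mitochondrially encoded genes at the top of each panel lie to the left in Rib_CA, while 20 of the 34 nuclear genes have both Rib_CA points to the right of both DMSO points.

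Calls depended on which libraries were kept, over the whole table as well as among these genes. The nuclear median was 0.72 without DMSO 1, 0.52 without DMSO 2, 0.56 without Rib_CA 1 and 0.62 without Rib_CA 2. That of all genes tested was 0.08, 0.05, -0.02 and -0.02 in the same fits. Transcript length and base composition also moved with the treatment over the whole table. Among all genes tested, the median log2 fold change was 0.58 for transcripts under 1000 nt, 0.24 from 1000 to 3000 nt and -0.19 from 3000 nt. By GC content it was -0.48 under 45%, 0.07 from 45 to 55% and 0.43 from 55%. The nuclear subunit transcripts had a median length of 1139 nt, against 3122 nt for all genes tested, and a median GC content of 48.5% against 49.3%. After each library was corrected for GC content and length, the nuclear median was 0.39 with 21 of 34 positive, no gene of the whole table passed, and the mitochondrially encoded median was -2.06.

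**Figure D2:**
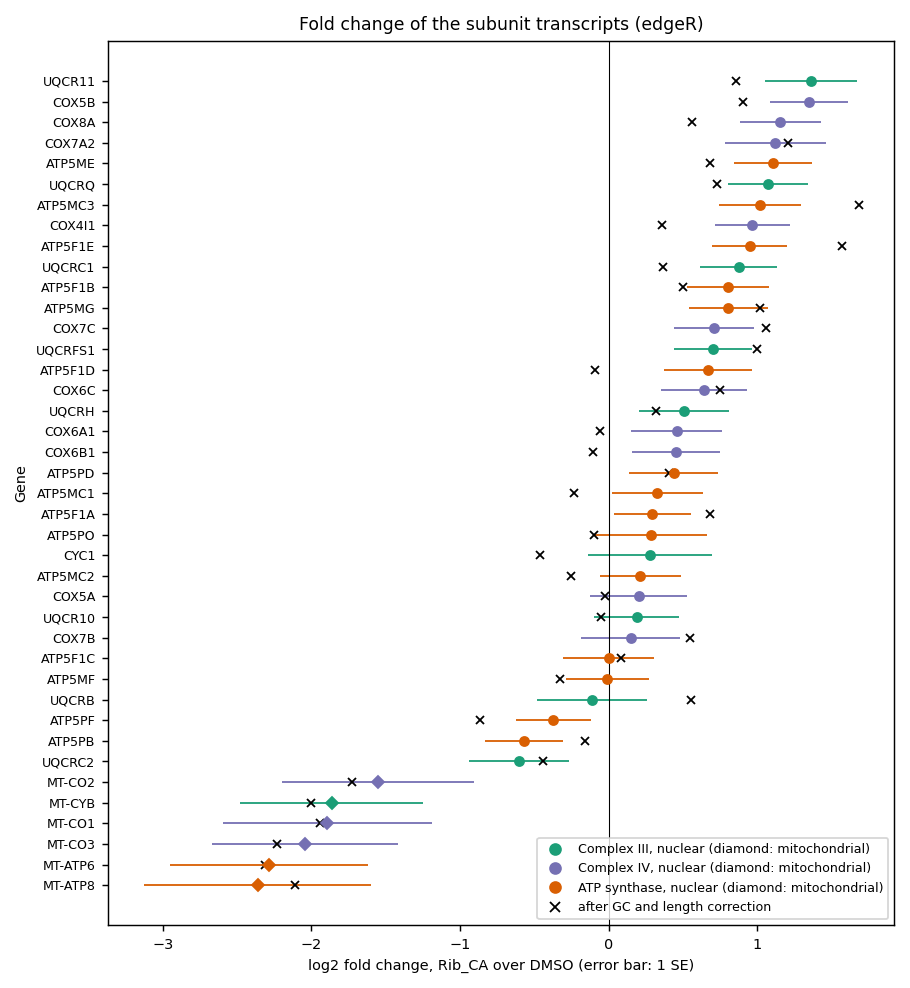
Log2 fold change of Rib_CA over DMSO from edgeR (x axis, bars of 1 SE, 2 libraries per group) for each gene (y axis), with circles for nuclear and diamonds for mitochondrially encoded genes, coloured by complex. Black crosses give the value after correction for GC content and length: the 6 mitochondrially encoded genes stay at the bottom of the order, and COX5B and UQCR11 stay positive.

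Complex III is a dimer whose electron path runs through cytochrome b, the Rieske iron-sulfur protein and cytochrome c1, flanked by 2 core proteins and several small subunits. Of its 9 nuclear genes, 7 had positive and 2 negative fold changes, with a median of 0.51, and UQCR11 was the 1 that passed in edgeR. At an unadjusted p under 0.05, 4 were higher and none lower, against 13.7% and 14.7% of all genes tested. DESeq2 called 3 higher (UQCR11, UQCRQ and UQCRC1) and none lower, against 8.1% and 11.8% of the genes to which it gave an adjusted p. UQCR11, which encodes a small subunit, lay at 52.7 and 35.7 CPM in DMSO 1 and 2 and at 129 and 98.6 CPM in Rib_CA 1 and 2. The lower Rib_CA library was well above the higher DMSO library. UQCR11 rose 2.57-fold, from 44.2 ± 12.03 CPM to 114 ± 21.3 CPM (mean ± SD, n = 2). In edgeR its log2 fold change was 1.36 ± 0.31 (SE), at an adjusted p of 0.0499. The call was lost without DMSO 1 (adjusted p = 0.127), without DMSO 2 (adjusted p = 0.328), in limma-voom (adjusted p = 0.0529) and after the GC and length correction (log2 fold change 0.86; adjusted p = 0.138). UQCR11 shares 10.9% of its exonic bases with an unnamed gene of the table on the same strand, so that part of its reads could have been assigned to either.

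The genes of the core proteins, which face the matrix, had fold changes of opposite sign. UQCRC1 lay at 119 and 108 CPM in DMSO 1 and 2 and at 227 and 189.7 CPM in Rib_CA 1 and 2 (log2 fold change 0.88 ± 0.26; adjusted p = 0.0877). UQCRC2 lay at 86.1 and 59.1 CPM in DMSO and at 37.6 and 57.9 CPM in Rib_CA (-0.61 ± 0.34; adjusted p = 0.285). The groups did not overlap for either gene, though for UQCRC2 the nearest libraries were 59.1 and 57.9 CPM. The ratio of UQCRC1 to UQCRC2 counts within a library, which no scaling changes, was 1.38 and 1.83 in DMSO and 6.04 and 3.28 in Rib_CA. This pair was singled out after its values were seen, and its ratio was not tested. The 2 transcripts also differ in GC content, at 59.5% for UQCRC1 and 45.5% for UQCRC2, and after the GC and length correction their log2 fold changes were 0.37 and -0.44.

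The other small subunits and the redox subunits of complex III varied. UQCRQ lay at 45.3 and 35.1 CPM in DMSO and at 87.7 and 81.7 CPM in Rib_CA (log2 fold change 1.08 ± 0.27; adjusted p = 0.0627). GDF9 on the opposite strand covers 20.8% of the exonic bases of UQCRQ. UQCRFS1, which encodes the Rieske protein, lay at 80.0 and 65.4 CPM in DMSO and at 128 and 109 CPM in Rib_CA (0.70 ± 0.26; adjusted p = 0.140). UQCRH, the gene of the hinge protein, had a log2 fold change of 0.51, and its nearest libraries were 78.4 CPM (DMSO 1) and 81.0 CPM (Rib_CA 1). CYC1, the gene of cytochrome c1, lay at 211 and 222 CPM in DMSO, and at 370.1 CPM in Rib_CA 1 but 155 CPM in Rib_CA 2, so its Rib_CA libraries stood on either side of DMSO. The log2 fold change of CYC1 was 0.28, and -0.46 after the GC and length correction. UQCRB showed the converse, with 107 CPM in Rib_CA 1 and 211 CPM in Rib_CA 2 around 191 and 151 CPM in DMSO, and a log2 fold change of -0.11 that was 0.56 after the correction. UQCR10, at 60.0 to 87.1 CPM over the 4 libraries, also overlapped.

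Promoter stretches are shown for the 2 genes that passed and for the pair of core proteins with opposite signs, because nuclear respiratory genes are textbook targets of the factors NRF1 and GABP (an ETS factor) and in some cases of YY1. The stretches run from 150 bases before to 10 bases after the RefSeq start (GRCh38.p14), 5′ to 3′ on the gene's strand, with matches to the motifs in capitals.
COX5B (chr2:97645912-97646071, plus strand): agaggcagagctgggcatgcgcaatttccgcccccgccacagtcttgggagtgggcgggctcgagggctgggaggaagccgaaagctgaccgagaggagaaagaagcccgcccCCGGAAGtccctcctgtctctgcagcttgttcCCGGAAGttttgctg
UQCR11 (chr19:1605453-1605612, minus strand): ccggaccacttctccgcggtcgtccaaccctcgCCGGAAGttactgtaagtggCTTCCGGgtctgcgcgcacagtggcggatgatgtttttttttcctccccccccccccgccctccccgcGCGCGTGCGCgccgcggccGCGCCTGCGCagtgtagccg
UQCRC1 (chr3:48609637-48609796, minus strand): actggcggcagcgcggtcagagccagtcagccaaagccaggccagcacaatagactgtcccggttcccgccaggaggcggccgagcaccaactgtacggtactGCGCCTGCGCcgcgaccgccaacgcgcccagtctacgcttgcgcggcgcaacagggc
UQCRC2 (chr16:21953211-21953370, plus strand): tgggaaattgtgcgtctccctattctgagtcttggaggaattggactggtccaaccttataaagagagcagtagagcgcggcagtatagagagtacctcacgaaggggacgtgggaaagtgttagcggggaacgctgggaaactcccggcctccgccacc

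The motifs searched, on both strands, were GCGCA and GCGC parted by any 1 base for NRF1, CCGGAAG for ETS factors and AAGATGGC for YY1. COX5B held 2 ETS matches, at -37 to -31 and across the start at -5 to 2. UQCR11 held 2 ETS matches, at -117 to -111 and -97 to -91, and 2 NRF1 matches, at -29 to -20 and -10 to -1. UQCRC1 held 1 NRF1 match at -47 to -38, and its YY1 match at 24 to 31 lies beyond the printed stretch. UQCRC2 held none of these letters in its window. RefSeq windows from 250 bases before to 50 after the start were found for 27 of the 34 nuclear genes and not for ATP5F1B, ATP5F1D, ATP5MC3, ATP5MF, COX6C, CYC1 and UQCRB. Of the 27, 13 held the ETS motif, 7 the NRF1 motif and 4 the YY1 motif, where 10.3%, 5.78% and 2.89% of all 35116 windows held them. The former are genes with a match in any window and the latter are windows, not limited to genes tested here. The 2 are therefore not like for like. Of the 27 genes, 16 had groups that lay apart as higher, and these include 11 of the 13 with the ETS motif, 4 of the 7 with the NRF1 motif and 1 of the 4 with the YY1 motif. A match is a run of letters and not a bound site.

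All 10 nuclear genes of complex IV had positive fold changes, with a median log2 fold change of 0.68. The groups lay apart as higher for 7 of them (70%), against 30.4% of all genes tested. COX5B alone passed in edgeR, which called 2.01% of all genes tested higher. At an unadjusted p under 0.05, 5 were higher, against 13.7% of all genes tested. DESeq2 called 4 higher (COX5B, COX8A, COX7A2 and COX4I1), against 8.1% of the genes to which it gave an adjusted p. These subunits surround the mitochondrially encoded catalytic core and take part in its assembly, stability and regulation. COX5B lay at 47.0 and 41.9 CPM in DMSO 1 and 2 and at 101 and 125 CPM in Rib_CA 1 and 2. Both treated libraries were far above both controls. COX5B rose 2.55-fold, from 44.4 ± 3.61 CPM to 113 ± 16.97 CPM (mean ± SD, n = 2). In edgeR its log2 fold change was 1.35 ± 0.26 (SE), at an adjusted p of 0.0368. Its call was lost without DMSO 1 (adjusted p = 0.196), without DMSO 2 (adjusted p = 0.248) and after the GC and length correction (log2 fold change 0.90; adjusted p = 0.120).

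COX8A, which encodes the ubiquitous form of the smallest kind of subunit, lay at 87.3 and 69.3 CPM in DMSO and at 192 and 157 CPM in Rib_CA. Its log2 fold change of 1.16 ± 0.27 just missed the threshold (adjusted p = 0.0539), and 34.5% of its exonic bases are shared with an unnamed gene on the same strand. COX7A2, a form found outside muscle, lay at 40.3 and 29.7 CPM in DMSO and at 58.3 and 94.2 CPM in Rib_CA (1.12 ± 0.34; adjusted p = 0.0922). COX4I1, which encodes a subunit form found in most tissues, lay at 79.2 and 65.4 CPM in DMSO and at 147 and 136 CPM in Rib_CA (0.97 ± 0.25; adjusted p = 0.0685). For each of these 3 genes both Rib_CA libraries were above both DMSO libraries. After the GC and length correction the log2 fold changes were 0.56 for COX8A, 1.21 for COX7A2 and 0.36 for COX4I1. COX7C (log2 fold change 0.71), COX6C (0.64) and COX6B1 (0.45) also had groups that lay apart, and COX6A1 (0.46), COX5A (0.20) and COX7B (0.15) had groups that overlapped. An unnamed gene on the same strand shares 13% of the exonic bases of COX6A1. COX5A resembled CYC1, with 118 CPM in Rib_CA 1 and 67.3 CPM in Rib_CA 2 around 78.8 and 82.2 CPM in DMSO.

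None of the 15 nuclear genes of ATP synthase passed in edgeR. At an unadjusted p under 0.05, 5 were higher and none lower, against 13.7% and 14.7% of all genes tested. DESeq2 called 5 higher (ATP5F1B, ATP5F1E, ATP5MC3, ATP5ME and ATP5MG), against 8.1% of the genes to which it gave an adjusted p. Fold changes were positive for 12 and negative for 3, with a median of 0.33. The groups lay apart as higher for 8 (53.3%) and as lower for 2 (13.3%), against 30.4% and 28.4% of all genes tested. In the catalytic F1 head, where the alpha and beta subunits alternate in a ring around the central gamma stalk, all 5 genes had positive values, that of ATP5F1C being 0.0002. ATP5F1B, which encodes the catalytic beta subunit, lay at 327 and 248 CPM in DMSO and at 500.2 and 506 CPM in Rib_CA (log2 fold change 0.81 ± 0.27; adjusted p = 0.119). ATP5F1A, which encodes the alpha subunit, lay at 139 and 114 CPM in DMSO and at 146 and 163 CPM in Rib_CA (0.29 ± 0.26; adjusted p = 0.496). The ratio of ATP5F1B to ATP5F1A counts was 2.35 and 2.19 in DMSO and 3.42 and 3.10 in Rib_CA, so it was higher in both treated libraries. The order of the pair turned after the GC and length correction, where the log2 fold changes were 0.50 for ATP5F1B and 0.68 for ATP5F1A. ATP5F1E, for the epsilon subunit, lay at 88.4 and 77.1 CPM in DMSO and at 153 and 167 CPM in Rib_CA (0.95 ± 0.25; adjusted p = 0.0691), and shares 23.2% of its exonic bases with TUBB1 on the opposite strand. Its log2 fold change was 1.57 after the correction. ATP5F1D, for the delta subunit, had a log2 fold change of 0.67, and of -0.09 after the GC and length correction. ATP5F1C, for the gamma subunit, lay at 167 and 153 CPM in DMSO and at 123 and 197 CPM in Rib_CA, so the groups overlapped.

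The peripheral stalk, which holds the F1 head still against the turning rotor, held the 2 lowest log2 fold changes among the nuclear genes of ATP synthase. ATP5PB, for subunit b, lay at 237 and 185 CPM in DMSO and at 138 and 147 CPM in Rib_CA (log2 fold change -0.57 ± 0.26; adjusted p = 0.215). ATP5PF, for coupling factor F6, lay at 54.6 and 61.2 CPM in DMSO and at 44.97 and 44.6 CPM in Rib_CA (-0.37 ± 0.25; adjusted p = 0.383). For both genes the Rib_CA libraries were below the DMSO libraries. ATP5PF shares 20.2% of its exonic bases with GABPA on the opposite strand, the gene of a GABP subunit, and ATP5PB shares 10.3% with WDR77. ATP5PD had a log2 fold change of 0.44 and ATP5PO, for the stalk's tip, of 0.29, with groups that overlapped for ATP5PO. An unnamed gene on the same strand shares 19.6% of the exonic bases of ATP5PO. The ratio of ATP5F1B to ATP5PB counts was 1.38 and 1.34 in DMSO and 3.63 and 3.44 in Rib_CA. This is 1 pair and not a contrast of head and stalk, since ATP5F1C and ATP5F1A of the head had log2 fold changes of 0.0002 and 0.29, and ATP5PD and ATP5PO of the stalk 0.44 and 0.29. After the GC and length correction the log2 fold changes of the pair lay closer, at 0.50 for ATP5F1B and -0.16 for ATP5PB. These ratios were singled out after their values were seen and were not tested.

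The rotor's c ring is built from a single mature protein that 3 nuclear genes encode, ATP5MC1, ATP5MC2 and ATP5MC3, which differ in their import sequences. ATP5MC3 lay at 103 and 78.4 CPM in DMSO and at 169 and 199 CPM in Rib_CA (log2 fold change 1.02 ± 0.27; adjusted p = 0.0724). ATP5MC1 lay at 52.1 and 43.8 CPM in DMSO and at 72.2 and 48.2 CPM in Rib_CA (0.33 ± 0.30), and ATP5MC2 at 116 and 101 CPM and at 145 and 106 CPM (0.21 ± 0.27). The ratio of ATP5MC3 to ATP5MC1 counts was 1.98 and 1.79 in DMSO and 2.34 and 4.13 in Rib_CA, and that of ATP5MC3 to ATP5MC2 was 0.888 and 0.780 in DMSO and 1.17 and 1.87 in Rib_CA. Both ratios were higher in both treated libraries, most of all in Rib_CA 2. ATP5MC3 has the lowest GC content of the 3 (41.0%, against 54.7% for ATP5MC1 and 57.2% for ATP5MC2), and after the GC and length correction the log2 fold changes were 1.68, -0.23 and -0.26. The small membrane subunits ATP5ME (log2 fold change 1.11 ± 0.26; adjusted p = 0.0540) and ATP5MG (0.81 ± 0.27; adjusted p = 0.111) had groups that lay apart as higher. ATP5ME lay at 23.7 and 22.1 CPM in DMSO and at 49.6 and 49.1 CPM in Rib_CA, but 61.6% of its exonic bases are shared with MYL5 on the opposite strand. ATP5MF, for subunit f, was at -0.01 with overlapping groups, and shares 7.78% of its exonic bases with ATP5MF-PTCD1 on the same strand.

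Among the mitochondrially encoded genes, MT-CYB, the gene of cytochrome b, lay at 5751 and 16555 CPM in DMSO 1 and 2 and at 4008 and 2122 CPM in Rib_CA 1 and 2 (log2 fold change -1.86 ± 0.62; adjusted p = 0.112). MT-CO1, whose product holds the site of oxygen reduction in complex IV, lay at 22491 and 57590 CPM in DMSO and at 15525 and 6006 CPM in Rib_CA (-1.90 ± 0.70; adjusted p = 0.140). MT-CO2, whose product receives electrons from cytochrome c, lay at 6727 and 20157 CPM in DMSO and at 6173 and 2980 CPM in Rib_CA (-1.55 ± 0.65; adjusted p = 0.173). For MT-CO2 the DMSO 1 and Rib_CA 1 libraries were almost level. MT-CO3, a core subunit of complex IV, lay at 11794 and 28382 CPM in DMSO and at 6705 and 3052 CPM in Rib_CA (-2.04 ± 0.63; adjusted p = 0.0959). MT-ATP6, which encodes the proton channel subunit a, lay at 2129 and 7285 CPM in DMSO and at 1307 and 625 CPM in Rib_CA (-2.28 ± 0.67; adjusted p = 0.0857). MT-ATP8 lay at 2077 and 6751 CPM in DMSO and at 1335 and 382 CPM in Rib_CA (-2.36 ± 0.77; adjusted p = 0.108). All 6 followed the same order of libraries, DMSO 2 above DMSO 1 above Rib_CA 1 above Rib_CA 2.

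The libraries within a group lay further apart than the nearest libraries of the 2 groups. DMSO 2 was 2.41 to 3.42 times DMSO 1 over the 6 genes, and Rib_CA 1 was 1.89 to 3.50 times Rib_CA 2, while DMSO 1 was 1.09 times (MT-CO2) to 1.76 times (MT-CO3) Rib_CA 1, the nearest library of the other group. Without DMSO 2 the median of the 6 was -1.10 and none passed in edgeR, and without DMSO 1 it was -2.49 with MT-ATP6 alone passing (adjusted p = 0.0318). Without Rib_CA 1 it was -2.79 with MT-CO1 and MT-CO3 passing, and without Rib_CA 2 it was -1.53 with none. Nuclear DNA holds many pseudogene copies of the mitochondrial genome, and none by the name of these genes is a row of the table. Of all 40 genes, nuclear ones included, 30 have pseudogenes by name, among them COX5B with 6. For ATP5F1E, 1 such pseudogene is a row of the table. How reads that fit several places were counted is not given in the sources used here.

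A ratio within a library does not depend on how libraries are scaled, so the genomes were also compared that way. The mean log2 CPM of the 6 mitochondrially encoded genes exceeded that of the 34 nuclear genes by 6.19 in DMSO 1, 7.95 in DMSO 2, 5.24 in Rib_CA 1 and 4.01 in Rib_CA 2. This averaged 7.07 ± 1.24 for DMSO and 4.63 ± 0.87 for Rib_CA (SD, n = 2), a log2 difference of -2.44, or 5.43-fold lower in Rib_CA. The groups did not overlap, with 0.95 between the nearest libraries, DMSO 1 and Rib_CA 1, against 1.76 between the DMSO libraries. The difference was 2.95-fold without DMSO 2 and 9.98-fold without DMSO 1, and 8.32-fold without Rib_CA 1 and 3.55-fold without Rib_CA 2. No p is given for it, since 2 libraries per group cannot go below 0.33 in an exact two-sided permutation test. By summed counts, the mitochondrially encoded subunits had 15.3 and 47.4 times the counts of the nuclear ones in DMSO 1 and 2, and 7.83 and 3.53 times in Rib_CA 1 and 2.

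The contrast had the same direction in each complex, though the complexes share the same libraries and are not separate observations of it. In complex III, MT-CYB exceeded the mean of the nuclear genes by 5.98 and 7.83 in DMSO and by 5.13 and 4.29 in Rib_CA, on the log2 scale. In complex IV the values were 7.42 and 8.97 in DMSO and 6.30 and 5.09 in Rib_CA, and in ATP synthase 4.64 and 6.59 in DMSO and 3.70 and 2.22 in Rib_CA. The mean differences of -2.19, -2.50 and -2.66 lay closer to each other than the libraries of either group did. The mitochondrially encoded subunits took 5.08% and 11.9% of all counts in DMSO and 3.53% and 1.73% in Rib_CA. The nuclear subunits took 0.332% and 0.252% in DMSO and 0.451% and 0.490% in Rib_CA. A lower share of mitochondrial RNA raises the share of all other RNA by itself. These shares therefore cannot tell how much each side of the ratio contributed.

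**Figure D3:**
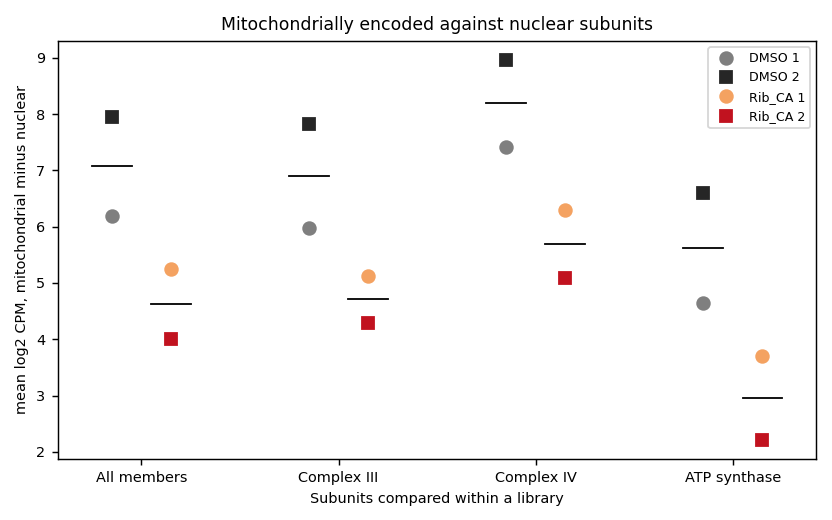
Mean log2 CPM of the mitochondrially encoded subunits minus that of the nuclear subunits within each library (y axis), for all 40 genes and for each complex (x axis). Points are libraries and black lines are group means. In all 4 comparisons both Rib_CA points lie below both DMSO points, and the DMSO points lie 1.55 to 1.95 apart.

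The 6 mitochondrially encoded transcripts did not keep the same proportions. MT-CO2 made up 13.2% and 14.7% of their summed counts in DMSO and 17.6% and 19.6% in Rib_CA, and was the 1 gene of the 6 whose share was higher in both treated libraries. The ratio of MT-CO2 to MT-CO3 counts was 0.570 and 0.710 in DMSO and 0.921 and 0.977 in Rib_CA. The share of MT-CO3 was lower in both treated libraries, with 23.1% and 20.8% in DMSO and 19.1% and 20.1% in Rib_CA, as was that of MT-ATP6 (4.18% and 5.33% against 3.73% and 4.12%) and MT-ATP8 (4.07% and 4.94% against 3.81% and 2.52%). For MT-CO3, MT-ATP6 and MT-ATP8 the DMSO libraries lay further apart than the nearest libraries of the 2 groups. MT-CO1, at 39.6 to 44.3%, and MT-CYB, at 11.3 to 14.0%, overlapped. As parts of 1 total, these shares are not independent: a higher share of MT-CO2 lowers the others. The differences in share were not tested. MT-ATP8 and MT-ATP6 lie on a shared messenger RNA and overlap by 46 bases, 22.2% of MT-ATP8, so their reads are not fully separable. The ratio of MT-ATP8 to MT-ATP6 counts was 0.975, 0.927 and 1.02 in DMSO 1, DMSO 2 and Rib_CA 1, and 0.610 in Rib_CA 2, which stood apart. Of the 9 pairs for which a ratio was computed, all picked after their values were seen, 7 had groups that lay apart as higher. The groups overlapped for this pair and for UQCRFS1 over CYC1, at 0.380 and 0.295 in DMSO and 0.345 and 0.704 in Rib_CA.

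**Figure D4:**
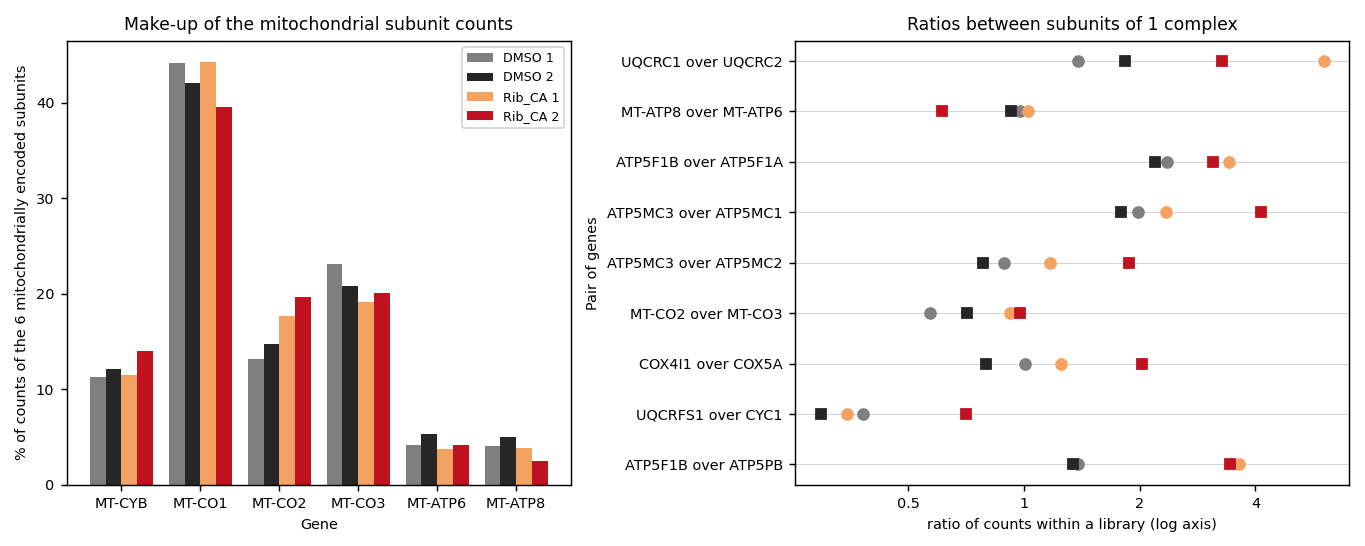
Left, share of each gene (x axis) in the summed counts of the 6 mitochondrially encoded subunits, in percent (y axis), with 1 bar per library. Right, ratio of the counts of 2 genes within a library (x axis, log scale) for all 9 pairs computed (y axis), in the same colours. The pairs and which gene is on top were picked after their values were seen, so the number of pairs on a side is not a result. In 7 pairs both Rib_CA points lie to the right of both DMSO points, and the groups overlap for MT-ATP8 over MT-ATP6 and for UQCRFS1 over CYC1.

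The 2 Rib_CA libraries differed from each other by over 1.5 times for 8 of the 34 nuclear genes, 5 higher in Rib_CA 2 (UQCRC2, UQCRB, COX7A2, ATP5F1C and ATP5PO) and 3 higher in Rib_CA 1 (CYC1, COX5A and COX6A1). The DMSO libraries did so for 2, COX6B1 and ATP5PO. Across the 34 nuclear genes, which share the same libraries, the log2 ratio of Rib_CA 2 to Rib_CA 1 ran with GC content at r = -0.563 (Spearman -0.630), and that of DMSO 2 to DMSO 1 at r = 0.541 (Spearman 0.467). The log2 fold change of Rib_CA over DMSO ran with GC content at r = 0.179 and with log2 transcript length at r = -0.211. These are descriptions over genes, which are not independent replicates, and the part of GC content in the differences between libraries was not tested.

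Other genes that act with these complexes were taken from lists made by function. As background for these lists, edgeR called 2.01% of all genes tested higher and 5.11% lower. At an unadjusted p under 0.05 the shares were 13.7% and 14.7%, and in DESeq2 8.1% and 11.8%. Of 25 assembly factors of complex IV (26 rows, since SCO2 has 2 gene IDs), 2 rose and none fell in edgeR, and 24 rows were positive, with a median of 0.44. At an unadjusted p under 0.05, 8 were higher and none lower, and DESeq2 called 4 higher and none lower. SURF1, an assembly factor whose loss causes Leigh syndrome, lay at 10.6 and 10.7 CPM in DMSO and at 25.4 and 32.2 CPM in Rib_CA, and rose 2.71-fold (adjusted p = 0.0400). COX19, which takes part in copper delivery to complex IV, lay at 15.6 and 16.5 CPM in DMSO and at 42.3 and 36.5 CPM in Rib_CA, and rose 2.46-fold (adjusted p = 0.0430). Both calls were lost on leaving out either DMSO library (adjusted p = 0.240 without DMSO 1 and 0.214 without DMSO 2 for SURF1, and 0.294 and 0.243 for COX19). After the GC and length correction SURF1 had a log2 fold change of 0.85 in place of 1.44. None of the 6 assembly factors of complex III or the 5 of ATP synthase passed in edgeR, with medians of 0.48 and 0.42. At an unadjusted p under 0.05, 1 of the former was higher, and 1 of the latter was higher and 1 lower, and DESeq2 called 1 of the former higher and 0 of the latter. Of 14 further subunits and tissue forms, 7 were tested, all 7 were positive and none passed in edgeR, with 2 higher at an unadjusted p under 0.05 and 2 in DESeq2. Among them NDUFA4, a complex IV subunit once assigned to complex I, lay at 54.8 and 46.4 CPM in DMSO and at 92.3 and 127 CPM in Rib_CA (log2 fold change 1.11 ± 0.28; adjusted p = 0.0639). COX7A2L, which helps join complexes III and IV into supercomplexes, was at 0.52 and ATP5IF1, the inhibitor of ATP synthase, at 0.05. None of the 6 genes of cytochrome c and of the nucleotide and phosphate carriers passed in edgeR, at an unadjusted p under 0.05 or in DESeq2, and the cytochrome c gene CYCS had a log2 fold change of 0.21 (-0.21 without DMSO 2 and -0.10 without Rib_CA 2).

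Complex I, which is also built from both genomes, showed the same 2 sides: 32 of its 37 nuclear genes were positive and all 7 mitochondrially encoded genes negative, with medians of 0.61 and -1.77. NDUFA1 rose 2.55-fold (adjusted p = 0.0365) and NDUFA2 2.48-fold (adjusted p = 0.0495) in edgeR, and DESeq2 called 9 of the nuclear genes higher. None fell in either tool. At an unadjusted p under 0.05, 13 were higher and none lower, against 13.7% and 14.7% of all genes tested. No mitochondrially encoded gene of complex I passed in edgeR, 5 of the 7 had an unadjusted p under 0.05, and DESeq2 called 6 lower. Both NDUFA calls were lost on leaving out either DMSO library (adjusted p = 0.217 without DMSO 1 and 0.265 without DMSO 2 for NDUFA1, and 0.171 and 0.358 for NDUFA2). Complex II, all of whose 4 genes are nuclear, had a median of 0.25 with none passing in edgeR, at an unadjusted p under 0.05 or in DESeq2.

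Of 25 genes for the copying, transcription and upkeep of mitochondrial DNA and RNA, 2 fell and none rose in edgeR. This was 8% of them, against 7.13% of all genes tested called in either direction. Fold changes were positive for 12 and negative for 13, with a median of -0.08. At an unadjusted p under 0.05, 2 were higher and 5 lower, against 13.7% and 14.7% of all genes tested. DESeq2 called 1 higher and 5 lower, against 8.1% and 11.8%. LRPPRC, which stabilises mitochondrial messenger RNAs, lay at 169 and 118 CPM in DMSO and at 52.5 and 54.6 CPM in Rib_CA. It was 2.68-fold lower (log2 fold change -1.42 ± 0.28; adjusted p = 0.0379). PNPT1, a ribonuclease of the mitochondrial RNA degradation machinery, lay at 47.4 and 36.5 CPM in DMSO and at 17.7 and 17.3 CPM in Rib_CA, and was 2.40-fold lower (adjusted p = 0.0493). The Rib_CA libraries were close to each other for both genes, unlike those of the mitochondrially encoded subunits. Both calls were lost without DMSO 1 (adjusted p = 0.260 for LRPPRC and 0.345 for PNPT1) and without DMSO 2 (0.0599 and 0.142), and after the GC and length correction the log2 fold changes were -0.76 and -0.64. TFAM, which packages and transcribes mitochondrial DNA, was at -0.29 ± 0.35 (0.02 without Rib_CA 1 and 0.38 after the correction). Of 11 regulators of respiratory gene transcription 10 were tested and none passed in edgeR, with 1 higher and 3 lower at an unadjusted p under 0.05, and 1 higher and 2 lower in DESeq2. PPARGC1A, a coactivator of mitochondrial biogenesis, lay at 5.05 and 10.4 CPM in DMSO and at 1.23 and 3.46 CPM in Rib_CA (log2 fold change -1.72 ± 0.62; adjusted p = 0.135). It had an adjusted p of 0.0218 without Rib_CA 2 and of 0.0371 in DESeq2. Its relative PPARGC1B was at -0.04 ± 0.32.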

How the data were processed

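Per the labels' protocols, the kit for the messenger RNA libraries was Hieff NGS MaxUp Dual-mode. The authors deposited 1 table of raw, whole-number counts per human Ensembl gene. GRCm38 and mm10, the builds in the submitters' processing notes, are mouse builds and cannot belong to human gene IDs. The build used, the aligner, the counter and its use of strand were not given in the sources used here. Of values from 1 to 10, 67.7 to 70.7% were even, so counts may hold both mates of a pair. Libraries of a group differed by far more than counting noise (chi-square 256.6 and 265.3 times its degrees of freedom). Gene names came from a table of names (20148 of 20263 IDs), and gene limits, overlaps and the length and GC content of the longest transcript of the best APPRIS level from GENCODE 29 (GRCh38). Promoters are RefSeq's.

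The main test, on genes kept by filterByExpr (minimum count 10, minimum total 15), used edgeR 4.0.16 under R 4.3.3 (TMM, robust glmQLFit, glmQLFTest, 2 residual degrees of freedom), with Benjamini-Hochberg adjustment and a threshold of 0.05. An SE is the absolute log2 fold change over the root of F. Alternatives used DESeq2 1.42.0, limma 3.58.1 (voom), other scalings and filters, fits with a block for replicate number, fits that leave out a library, and an offset that smooths the deviations of a library over length and GC (mgcv 1.9.3, with 6 basis functions), which also removes a real change that runs along them. Where leaving out a library left 1 in a group, that one was taken to vary as the other group did. All 40 genes were named whatever their values. Of the other lists the genes that passed, at most the 3 with the smallest p, were named, and 7 genes whatever their values. Members and lists were chosen with earlier results of these data known. The test was tried on simulated data. Figures used matplotlib 3.10.9.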

Additional observations from a re-analysis of the deposited data

How the results depend on the processing

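Over all genes tested, edgeR called 275 higher and 699 lower. The counts were 448 and 876 without a filter, and 418 and 808 with 5 CPM in at least 2 libraries. With mitochondrially encoded genes out of the scaling they were 379 and 743. With total counts alone they were 260 and 328, and the median of all genes moved from 0.03 to 0.23. They were 1043 and 1514 in DESeq2, and 214 and 638 in limma-voom. The counts were 0 and 0 after the GC and length correction, and 176 and 208 after that correction with the replicate block. With 1 library left out they ranged from 36 to 1234 higher and from 137 to 1634 lower. Of the nuclear subunits, 4 rose with mitochondrially encoded genes out of the scaling, 4 without a filter, 5 with the 5 CPM filter, 12 in DESeq2, 1 in limma-voom, 0 after the GC and length correction, 2 after it with the replicate block (ATP5F1E, adjusted p = 0.0244, and ATP5MC3, adjusted p = 0.0194, in place of COX5B and UQCR11) and 0 to 10 with 1 library left out. Of the mitochondrially encoded subunits, 6 were called lower in DESeq2 and 0 to 2 with 1 library left out. With 1 library left out the medians ranged from 0.52 to 0.72 (nuclear) and from -2.79 to -1.10 (mitochondrially encoded), and the ratio of the 2 genomes from -3.32 to -1.56 on the log2 scale. Neither median nor the ratio changed sign under any alternative run. The causes of these shifts were not tested.

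Nothing in the labels says that the replicate numbers of the titles pair the libraries. Deviations of same-numbered libraries from their group means correlated at -0.186, a single value that cannot settle whether they are paired. With the replicate block, 260 genes were higher and 687 lower, and 2 nuclear subunits rose. The nuclear median was 0.50 and the mitochondrially encoded median was -1.96. The block cannot move the ratio of the 2 genomes, since its mean over pairs equals the difference of the group means. COX19 (adjusted p = 0.0686), NDUFA2 (0.0577) and PNPT1 (0.0766) lost their calls in edgeR under the block. With crossed numbers, an alternative chosen after seeing the data, 724 genes were higher and 1267 lower, 9 nuclear subunits rose and 6 mitochondrially encoded subunits were lower.

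Direction was kept by 27 of the 40 genes under all 15 alternatives, among them all 6 mitochondrially encoded genes, 3 nuclear genes with negative values (UQCRC2, ATP5PB and ATP5PF) and 18 with positive ones. The other 13, none of which passed under any setting, changed sign. Log2 fold changes of the other sign, with those of other named genes, were, with total counts alone, UQCRB 0.11, ATP5MF 0.18 and PPARGC1B 0.14. After the GC and length correction they were UQCRB 0.56, UQCR10 -0.053, CYC1 -0.46, COX5A -0.026, COX6A1 -0.056, COX6B1 -0.11, ATP5F1D -0.094, ATP5PO -0.096, ATP5MC1 -0.23, ATP5MC2 -0.26, ATP5IF1 -0.36, TFAM 0.38 and PPARGC1B 0.32. After that correction with the replicate block they were UQCRB 0.54, UQCR10 -0.0804, CYC1 -0.55, COX5A -0.094, COX6A1 -0.052, COX6B1 -0.084, ATP5F1D -0.078, ATP5PO -0.11, ATP5MC1 -0.23, ATP5MC2 -0.25, ATP5IF1 -0.36, TFAM 0.38 and PPARGC1B 0.33. ATP5MF was at 0.014 with mitochondrially encoded genes out of the scaling. ATP5F1C was at -0.023 with DESeq2 size factors and in the DESeq2 test, at -0.00299 without a filter, and at -0.038 in limma-voom and with the replicate block in either pairing. With 1 library left out, values ranged from -0.69 to 0.26 for UQCRB, from -0.15 to 0.43 for UQCR10, from -0.53 to 0.77 for CYC1, from -0.30 to 0.55 for COX5A, from -0.17 to 0.44 for COX7B, from -0.38 to 0.26 for ATP5F1C, from -0.13 to 0.69 for ATP5PO, from -0.0302 to 0.59 for ATP5MC1, from -0.0642 to 0.42 for ATP5MC2, from -0.32 to 0.21 for ATP5MF, from -0.29 to 0.30 for ATP5IF1, from -0.21 to 0.80 for CYCS, from -0.76 to 0.0206 for TFAM and from -0.19 to 0.11 for PPARGC1B.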
